A study of Arabidopsis thaliana with 8 samples.

Results

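Transcripts of 29 transcription factor genes of the MYB, bHLH, WRKY, NAC and bZIP families were followed in developing seeds of the Arabidopsis thaliana ttg1 mutant and of wild-type Ler (Landsberg erecta). The rule that picks the genes uses their names and no measured value, and it was written with earlier results of these data known. Each gene had a probe set for which the array's annotation lists 1 gene, with a symbol that begins with MYB, BHLH, WRKY, NAC or BZIP, or was TRY (TRIPTYCHON, a MYB gene) or EEL (ENHANCED EM LEVEL, a bZIP gene). This gave 29 of 22746 tested probe sets, with 2 MYB, 5 bHLH, 6 WRKY, 1 NAC and 15 bZIP genes, and each gene had 1 probe set. Seeds were taken out of the siliques while their embryos were between the globular and the walking-stick stage. Total RNA of 4 ttg1 and 4 Ler samples, called biological replicates in their titles, was measured on Affymetrix ATH1 microarrays, with an array for each sample. The source labels add a suffix to both genotypes that runs with the replicate number, and its meaning is not given in the sources used here, nor is the background of the ttg1 line.

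TTG1 (TRANSPARENT TESTA GLABRA1) is a WD40-repeat protein that binds bHLH proteins, which in turn bind R2R3-MYB proteins. In the seed coat the resulting complex switches on proanthocyanidin genes and the mucilage programme, and in the leaf epidermis and root it sets the pattern of hairs. The partners of TTG1 thus come from the MYB and bHLH families. Many WRKY, NAC and bZIP factors act in stress, senescence, nutrient and maturation responses, and bZIP factors of groups A and S take part in seed maturation. Setting ttg1 against Ler shows which of these regulators have altered transcript levels in the mutant seeds.

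Values are log2 units relative to the median of each probe set over the 8 arrays, so that they compare arrays and give no absolute level, and the number of arrays limits their precision. TTG1 itself had no probe set named with 1 gene and was not analysed here. As a check of the genotype labels, BAN (anthocyanidin reductase), a target of the complex, was at -3.45, -3.39, -3.02 and -3.28 in ttg1 replicates 1 to 4, against 3.13, 3.02, 3.37 and 3.04 in Ler replicates 1 to 4. DFR (dihydroflavonol 4-reductase) was at -3.66, -3.57, -3.90 and -3.24 in ttg1, against 3.53, 3.24, 3.51 and 3.31 in Ler. Both targets were far apart between the genotypes (log2 changes of -6.43 ± 0.12 and -6.99 ± 0.14, limma adjusted p 8.14e-11 and 1.53e-10). The mean of 5 seed storage globulin genes, which rise as embryos fill, lay between -0.36 and 1 in ttg1 and between -0.53 and 1.18 in Ler, and was highest in replicate 4 of both genotypes. PAP85, AT2G28490 and AT1G03890 peaked there in both genotypes, whereas in Ler AT2G18540 peaked in replicate 2 and AT4G36700 was lowest in replicate 4. AT4G36700 had a log2 change of -0.37 ± 0.13 (adjusted p 0.129 in limma). The difference of the mean, ttg1 minus Ler, was -0.13 (exact two-sided permutation test over 70 assignments, p = 0.714). Because levels were removed by centring, the labelled tissue could not be checked against the presence of its markers. ttg1 replicate 4 stood farthest from its group over all probe sets, with a root mean square deviation of 0.245, against 0.115 to 0.184 in the other arrays.

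Measured changes in the 29 transcripts were small. One gene fell, bHLH115, and one rose, WRKY53, so that 2 of 29 (6.9%) passed the threshold of an adjusted p under 0.05 in limma, while 5.72% of all 22746 probe sets passed it. Per direction the shares over all probe sets were 1.76% higher and 3.96% lower. At an unadjusted p under 0.05 there were 6 genes (20.7%), 3 higher (WRKY53, WRKY42 and NAC014) and 3 lower (bHLH115, bHLH104 and bZIP52), against 23% of all probe sets. In 3 genes, bHLH115, WRKY53 and bZIP52, the 4 ttg1 values did not overlap the 4 Ler values (10.3%, 1 higher and 2 lower). The genotypes did not overlap in 14.8% of all probe sets, 6.51% with ttg1 higher and 8.33% with ttg1 lower. Each of these shares was near its background. The median log2 change was 0.060 over the 29 genes and 0.025 over all probe sets, and the single changes ran from -0.46 to 0.45. The limma 95% interval of the change lay inside a 2-fold change in either direction for 29 of 29 genes and inside a 1.5-fold change for 26 of them, which is 89.7%, against 81.2% of all probe sets. The widest interval bound was 0.71, on the upper side of WRKY53. These bounds concern the array signal. Signal over background is unknown, so they need not hold for the transcripts of dim probe sets. In bulk seed RNA, fewer cells of a type and less transcript per cell cannot be told apart.

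**Figure D1:**
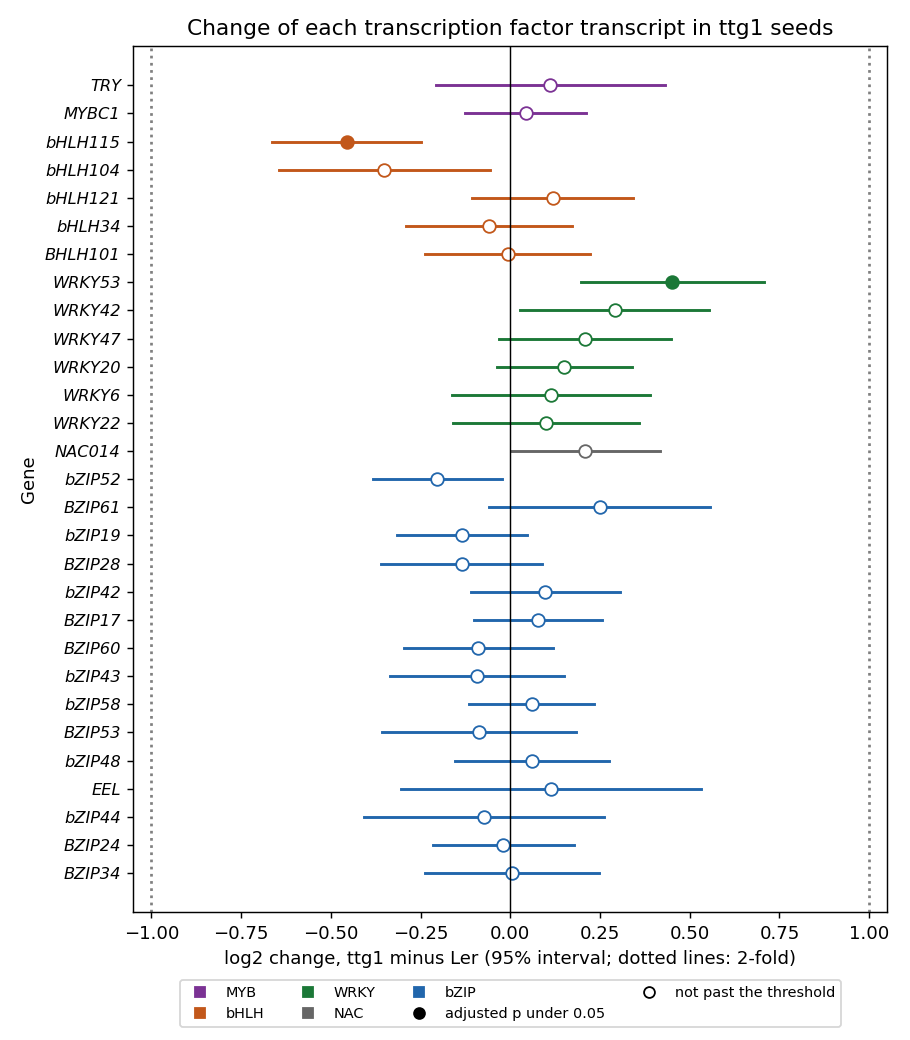
Log2 change (ttg1 minus Ler, x axis) of each of the 29 genes (y axis), with limma's 95% interval as a line and the families in colours. Filled points passed an adjusted p of 0.05: bHLH115 at -0.46 and WRKY53 at 0.45; dotted lines mark 2-fold changes, and no interval reaches them.

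The MYB family, which supplies one of the partners of TTG1, was represented by 2 genes, and neither codes for an R2R3-MYB. TRY (AT5G53200) is a small single-repeat MYB without an activation domain that competes with R2R3-MYB proteins for the bHLH partner and thereby limits trichome formation. Its values were 0.26, -0.25, -0.078 and 0.24 in ttg1 replicates 1 to 4, against -0.40, -0.02, 0.12 and 0.02 in Ler replicates 1 to 4. The genotypes overlapped, and ttg1 itself split into 2 high arrays (replicates 1 and 4) and 2 low ones. The log2 change was 0.11 ± 0.14 (SE, 4 arrays per group), with a 95% interval from -0.21 to 0.43 and a limma adjusted p of 0.679. Without ttg1 replicates 1 and 4 it was -0.096. MYBC1 (AT2G40970), a MYB-like protein known as a negative regulator of freezing tolerance, had values close to 0, with 0.05, -0.0075, -0.031 and 0.16 in ttg1 and -0.0041, -0.028, 0.027 and 0.0041 in Ler. Its change was 0.042 ± 0.076 (adjusted p 0.778 in limma), with an interval from -0.13 to 0.21.

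Genes of the TTG1 complex proper were mostly not named on the array's annotation. Of 15 listed complex genes 1 was measured by name, ATMYC1, which codes for a bHLH protein of the epidermal TTG1 complex and falls outside the 29 genes because of its symbol. Of 8 listed small MYB inhibitors TRY was named, and of 10 listed targets BAN and DFR, which fell. Of 11 other seed coat regulators none was named, and of 16 embryo and endosperm regulators EEL and BZIP53 were. Here and below, a listed gene counts as measured only if a probe set was named with that gene alone. Whether the others lie among the 8730 unnamed probe sets was not looked up. ATMYC1 was at 0.10, 0.21, -0.40 and 1.04 in ttg1 replicates 1 to 4, against -0.91, -0.61, 0.091 and -0.091 in Ler. Its highest value was in ttg1 replicate 4 and its lowest in Ler replicate 1, the arrays with the highest and the lowest storage globulin mean of their genotypes (1 and -0.53). In Ler replicate 4, with the highest mean of Ler (1.18), ATMYC1 was at -0.091. In ttg1 replicate 1, with the lowest mean of ttg1 (-0.36), ATMYC1 was at 0.10, above ttg1 replicate 3. The groups overlapped, and the log2 change was 0.62 ± 0.29 (adjusted p 0.236 in limma). It was 0.35 without ttg1 replicate 4 and 0.31 with array weights (adjusted p 0.457 and 0.519 in limma). With the storage globulin mean as a covariate it was 0.70 (adjusted p 0.0233 in limma), in a fit that called 15.7% of all probe sets, against 5.72% without the covariate.

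All 5 genes of the bHLH family act in iron homeostasis, and none is among the listed genes of the TTG1 complex. bHLH34, bHLH104 and bHLH115 belong to group IVc, whose dimers activate the iron deficiency response, bHLH121 is their group IVb partner, and BHLH101, of group Ib, is one of the genes that they activate. bHLH115 (AT1G51070) was at -0.28, -0.22, -0.097 and -0.31 in ttg1 replicates 1 to 4, against 0.097, 0.13, 0.40 and 0.28 in Ler replicates 1 to 4. Every ttg1 value lay below every Ler value. The transcript averaged -0.23 ± 0.094 in ttg1 and 0.23 ± 0.14 in Ler (SD, n = 4 each) and fell 1.37-fold (log2 change -0.46 ± 0.094, 95% interval -0.66 to -0.25, limma adjusted p 0.0183), the 704th smallest p of 22746. The call did not hold without Ler replicate 3, the array with the highest value (log2 change -0.40, adjusted p 0.0616 in limma), and the adjusted p ranged from 0.0227 to 0.0616 over the 8 fits that each left out 1 array. Omitting ttg1 replicates 1 and 4 together also ended the call (log2 change -0.39, adjusted p 0.0939 in limma).

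bHLH104 (AT4G14410) was at -0.25, 0.0032, -0.0032 and -0.57 in ttg1 replicates 1 to 4, against 0.31, 0.18, -0.007 and 0.098 in Ler replicates 1 to 4. It was lowest in ttg1 replicates 4 and 1, while ttg1 replicates 2 and 3 lay beside Ler replicate 3, so that the groups overlapped. The log2 change was -0.35 ± 0.13 (95% interval -0.64 to -0.057) and did not pass (adjusted p 0.149 in limma). With the storage globulin mean as a covariate it was -0.38 (limma adjusted p 0.0386), in that fit with more calls. Leaving out ttg1 replicate 4 gave -0.23 (limma adjusted p 0.27). bHLH34 (AT3G23210), a close relative of bHLH104, was at 0.14, -0.071, 0.033 and -0.29 in ttg1, against 0.095, 0.096, -0.033 and -0.10 in Ler. It too was lowest in ttg1 replicate 4, and its change of -0.06 ± 0.10 (adjusted p 0.772 in limma) came to 0.022 without that array. bHLH121 (AT3G19860) was at 0.018, -0.095, 0.056 and 0.18 in ttg1, against -0.15, -0.26, 0.12 and -0.018 in Ler. BHLH101 (AT5G04150) was at 0.042, -0.19, 0 and 0.12 in ttg1, against -0.028, 0, -0.18 and 0.21 in Ler. In both genes the genotypes overlapped, with log2 changes of 0.12 ± 0.10 for bHLH121 and -0.0073 ± 0.10 for BHLH101 (adjusted p 0.518 and 0.976 in limma). The interval of BHLH101, from -0.24 to 0.22, was centred close to 0.

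bHLH115 was set against its relatives by the within-array differences between genes. The change of bHLH115 minus that of another gene was -0.40 for bHLH34, -0.57 for bHLH121 and -0.45 for BHLH101, each at the smallest p that 70 assignments allow (exact two-sided permutation test, p = 0.0286). For bHLH104 it was -0.105 (exact two-sided permutation test, p = 0.6). Over all 25 pairs of genes within the bHLH and WRKY families the smallest adjusted p of these permutation tests was 0.238. At least 15 pairs would have to reach the smallest possible p for any to pass this correction, which pooled both families, and 3 did. These pooled tests thus could not settle whether bHLH115 differs from its relatives. bHLH115 was set against them because it was called, and the 4 differences are a description. ILR3 and PYE belong to the same groups, carry other names on the annotation and were chosen after the values above were seen. ILR3, the remaining group IVc member, was at -0.23, -0.18, -0.10 and 0.25 in ttg1, against 0.021, -0.0034, 0.053 and 0.0034 in Ler (log2 change -0.085 ± 0.11, adjusted p 0.67 in limma). It was high in ttg1 replicate 4 and low in the other 3 ttg1 arrays, outside the narrow Ler values on both sides. PYE, a group IVb repressor of iron genes, had a log2 change of 0.18 ± 0.099 (adjusted p 0.312 in limma).

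**Figure D2:**
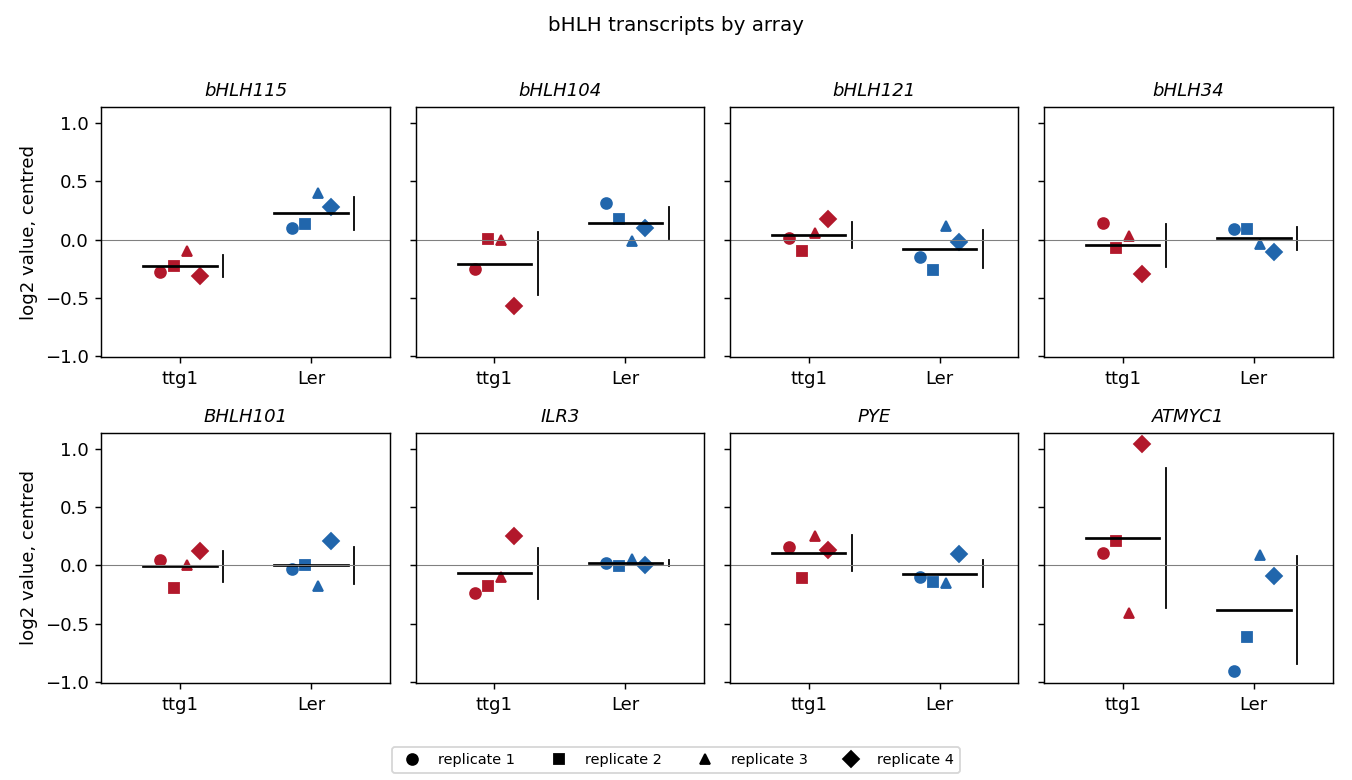
Centred log2 values (y axis) of 8 bHLH genes in the 4 ttg1 (red, left) and 4 Ler arrays (blue, right), with marker shapes for the replicates, the mean as a horizontal bar and the SD as a vertical line. bHLH115 separates the genotypes; ILR3, PYE and ATMYC1 are bHLH genes outside the 29, and ATMYC1 reaches 1.04 in ttg1 replicate 4.

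WRKY factors bind W-box elements in defence, senescence and phosphate responses. The log2 change was above 0 for 6 of 6 WRKY genes, against 55.6% of all probe sets, and its median was 0.18. That of WRKY6 changed sign without ttg1 replicate 1 (-0.010). WRKY53 (AT4G23810), a regulator of leaf senescence, was at 0.40, 0.16, 0.056 and 0.54 in ttg1 replicates 1 to 4, against -0.28, -0.08, -0.24 and -0.056 in Ler replicates 1 to 4. All ttg1 values lay above all Ler values, with the widest gap in ttg1 replicates 4 and 1. The means were 0.29 ± 0.22 in ttg1 and -0.16 ± 0.11 in Ler (SD, n = 4 each), and WRKY53 rose 1.37-fold (log2 change 0.45 ± 0.12, 95% interval 0.20 to 0.71), with a limma adjusted p of 0.0466, just inside the threshold. The call was lost when any array except ttg1 replicate 3 was left out, with adjusted p from 0.0302 to 0.13 in limma and log2 changes from 0.37 to 0.53. Without ttg1 replicates 1 and 4 together the change was 0.27 (adjusted p 0.192 in limma).

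WRKY6 and WRKY42, which act in phosphate homeostasis as repressors of the phosphate exporter gene PHO1, and WRKY47 belong to group IIb. WRKY42 (AT4G04450) was at 0.43, -0.10, 0.25 and 0.24 in ttg1 and -0.10, -0.16, -0.18 and 0.10 in Ler. Ler replicate 4 lay above ttg1 replicate 2, so the groups overlapped, and the change of 0.29 ± 0.12 did not pass (adjusted p 0.179 in limma). WRKY47 (AT4G01720) was at 0.41, -0.11, 0.11 and 0.22 in ttg1 and -0.13, -0.033, 0.033 and -0.074 in Ler (log2 change 0.21 ± 0.11, adjusted p 0.28 in limma). WRKY6 (AT1G62300) was at 0.47, -0.037, 0.0059 and -0.051 in ttg1 and -0.0059, 0.018, 0.10 and -0.19 in Ler. All 3 group IIb genes were highest in ttg1 replicate 1, between 0.41 and 0.47, and in WRKY6 that array alone stood above the rest (log2 change 0.11 ± 0.13, adjusted p 0.619 in limma). WRKY20 (AT4G26640) was highest in ttg1 replicate 3, at 0.29, with a change of 0.15 ± 0.085. WRKY22 (AT4G01250), a factor of innate immune signalling, was highest in ttg1 replicate 4, at 0.32, with a change of 0.10 ± 0.12. Neither passed (adjusted p 0.315 and 0.644 in limma). Of the 6 genes 3 thus had their peak in ttg1 replicate 1, 2 in ttg1 replicate 4 and 1 in ttg1 replicate 3. Without ttg1 replicates 1 and 4 the change was 0.16 for WRKY42 and WRKY20, 0.053 for WRKY47, 0.0018 for WRKY6 and 0.09 for WRKY22.

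**Figure D3:**
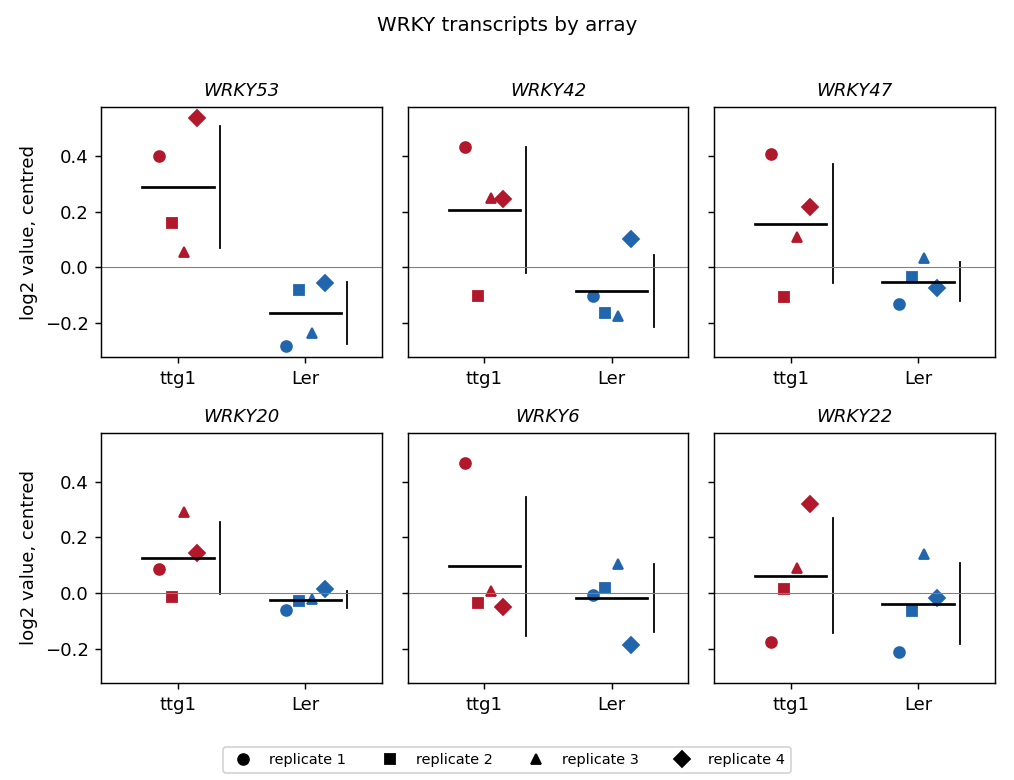
Centred log2 values (y axis) of the 6 WRKY genes in the 4 ttg1 (red, left) and 4 Ler arrays (blue, right), with marker shapes for the replicates, the mean as a horizontal bar and the SD as a vertical line. WRKY53 values do not overlap; WRKY42, WRKY47 and WRKY6 peak in ttg1 replicate 1.

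Markers of leaf photosynthesis, silique wall and endosperm were given beside these values, the first because WRKY53 is best known from leaves. Of 6 leaf photosynthesis genes, RCA and LHCB4.1 were measured, and their mean was -0.28, 0.16, 0.099 and 0.74 in ttg1 replicates 1 to 4, against -0.25, -0.042, -0.18 and -0.0046 in Ler. WRKY53 and these markers were both highest in ttg1 replicate 4, while in ttg1 replicate 1 WRKY53 was at 0.40 and the markers were at -0.28. Of 7 silique wall genes 2 were measured, with means between -0.30 and 0.20 in ttg1 and between -0.23 and 0.095 in Ler. Of 7 endosperm genes 3 were measured, with means between -0.069 and 0.24 in ttg1 and between -0.046 and 0.0097 in Ler. None of these 7 genes passed the threshold in limma, and 2 of them, YAB3 and ALC of the silique wall, had an unadjusted p under 0.05, against 23% of all probe sets. These 2 pointed in opposite directions, with log2 changes of 0.67 ± 0.23 for YAB3 and -0.47 ± 0.21 for ALC, so that their mean hides both. The genotypes did not overlap in YAB3, as in 14.8% of all probe sets, and overlapped in ALC. The part of these tissues, within or outside the seed, in the WRKY and bHLH values was not tested.

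NAC014 (AT1G33060) was the single gene of the NAC family, a plant family of factors with a shared DNA-binding domain. It was at 0.36, 0.095, -0.0046 and 0.12 in ttg1 replicates 1 to 4, against -0.14, -0.12, -0.012 and 0.0046 in Ler replicates 1 to 4. ttg1 replicate 1 stood highest, and ttg1 replicate 3 lay within the Ler values. The change was 0.21 ± 0.094 (95% interval 0.00092 to 0.42) and did not pass over all probe sets (adjusted p 0.216 in limma).

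The bZIP family had the most of the selected genes and no call. Of these 15 genes 7 had a log2 change above 0 and 8 below 0, with a median of -0.020 and a range from -0.20 to 0.25. The 95% interval lay inside a 1.5-fold change for all 15. bZIP52 (AT1G06850) was the only one whose groups did not overlap. It was at -0.13, -0.11, -0.0093 and -0.10 in ttg1 replicates 1 to 4, against 0.18, 0.0093, 0.21 and 0.053 in Ler replicates 1 to 4, and the nearest values, in ttg1 replicate 3 and Ler replicate 2, lay next to each other. Its change was -0.20 ± 0.081 (adjusted p 0.168 in limma).

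Among the seed maturation factors, BZIP53 (AT3G62420), which dimerises with group C bZIP proteins on promoters of storage protein genes, was at -0.076, 0.28, -0.088 and -0.16 in ttg1, against 0.076, 0.10, 0.29 and -0.16 in Ler. The spread within each genotype exceeded the difference between them (-0.087 ± 0.12, adjusted p 0.71 in limma), and in both genotypes replicate 4 was the lowest. EEL (AT2G41070), a group A factor that competes with ABI5 at the promoter of the late embryogenesis gene Em1, was at -0.21, 0.16, -0.28 and 0.72 in ttg1, against -0.16, -0.046, 0.046 and 0.099 in Ler. The value of 0.72 in ttg1 replicate 4 was the highest of all 29 genes, in an array where the storage globulin mean was 1. In Ler replicate 4 that mean was 1.18 and EEL was at 0.099. EEL had the widest spread within groups (SD 0.45 in ttg1 and 0.12 in Ler), and its change of 0.11 ± 0.19 (adjusted p 0.759 in limma) was -0.093 without ttg1 replicate 4. bZIP44 (AT1G75390), a group S factor of seed germination, was at 0.0013, 0.27, 0.091 and -0.48 in ttg1 and 0.27, -0.0013, -0.085 and -0.017 in Ler. It was lowest in ttg1 replicate 4, where EEL was highest, and its change was -0.073 ± 0.15 (adjusted p 0.81 in limma).

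The 3 bZIP factors of endoplasmic reticulum stress had log2 changes between -0.14 and 0.078, and none passed. BZIP17 and BZIP28 are held in the membrane of the endoplasmic reticulum and are released by proteolysis, and the messenger of BZIP60 is spliced by IRE1, so that their activity is not set by transcript level alone. Log2 changes were 0.078 ± 0.081 for BZIP17, -0.14 ± 0.10 for BZIP28 and -0.089 ± 0.094 for BZIP60 (adjusted p 0.596, 0.452 and 0.603 in limma). BZIP28 was lowest in ttg1 replicate 1, at -0.40, and its change was -0.042 without that array. BZIP60 was lowest in ttg1 replicate 4, at -0.30, and its change was -0.014 without it. bZIP19 (AT4G35040), the sensor and activator of the zinc deficiency response, had a change of -0.14 ± 0.082, and its group F relative BZIP24 (AT3G51960), a factor of salt stress, one of -0.02 ± 0.089 (adjusted p 0.35 and 0.919 in limma). Of the group E pair, BZIP61 (AT3G58120) was at -0.0021, 0.21, -0.039 and 0.53 in ttg1, against -0.33, -0.084, 0.11 and 0.0021 in Ler. Its highest value was in ttg1 replicate 4 and its lowest in Ler replicate 1, and the change of 0.25 ± 0.14 did not pass (adjusted p 0.31 in limma). It was 0.13 without that ttg1 array and 0.16 without that Ler array. BZIP34 (AT2G42380), its relative with a role in pollen wall formation, had a change of 0.0037 ± 0.11, with an interval from -0.24 to 0.25. The group S genes bZIP42, bZIP43, bZIP48 and bZIP58 had changes of 0.098, -0.092, 0.06 and 0.06, with adjusted p from 0.564 to 0.75 in limma.

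**Figure D4:**
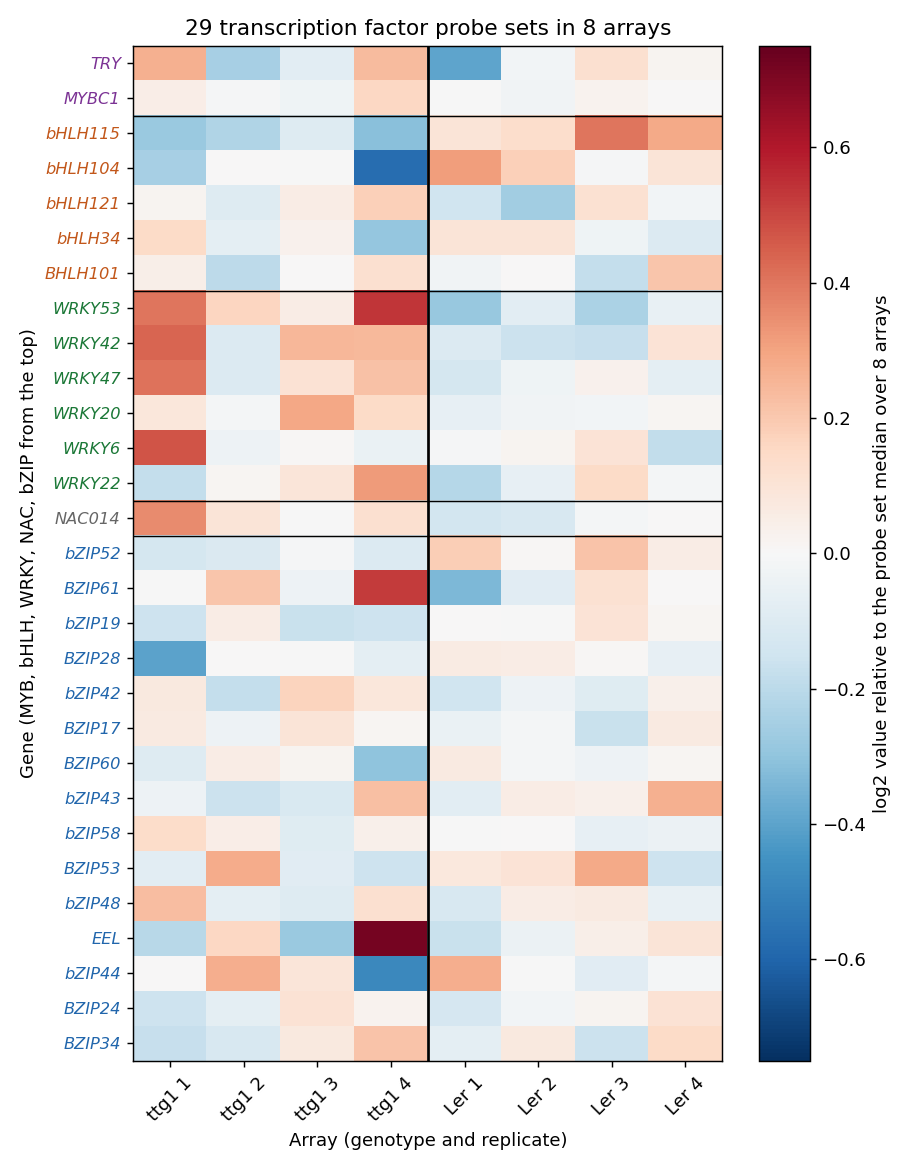
Centred log2 values (colour scale) of the 29 genes (rows, grouped as MYB, bHLH, WRKY, NAC and bZIP from the top) in the 8 arrays (columns, ttg1 left of Ler). bHLH115 is low and WRKY53 high in all 4 ttg1 arrays, and the strongest single values lie in ttg1 replicate 4, with EEL at 0.72 and bHLH104 at -0.57.

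Spread within the genotypes was larger in ttg1 for most of the genes, though not in the bHLH family. The SD over 4 arrays was wider in ttg1 than in Ler for 24 of 29 genes (82.8%), against 69.2% of all probe sets, with median SDs of 0.17 in ttg1 and 0.11 in Ler for the 29 genes and 0.17 in ttg1 and 0.12 in Ler over all probe sets. In the bHLH family it was wider in ttg1 for 2 of 5 genes, with median SDs of 0.13 in ttg1 and 0.14 in Ler. The highest of the 8 values was in ttg1 replicate 1 for 8 genes and in ttg1 replicate 4 for 7, together 51.7%, against 43% of all probe sets. ttg1 replicate 4 held the highest or the lowest value of 13 genes (44.8%, against 47.3% of all probe sets). A wider spread in ttg1 was thus seen over all probe sets too. BZIP17, MYBC1 and EEL lie close together in the genome, with MYBC1 3 genes from BZIP17 and 12 genes from EEL in the RefSeq gene order, and none of the 3 passed the threshold.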

How the data were processed

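Total RNA of 8 developing seed samples, 4 of ttg1 and 4 of Ler, was measured on Affymetrix ATH1 arrays. The deposited values are log2 RMA values per the submitters' processing notes, with no version given, and RMA corrects background, quantile normalizes the arrays and summarises probes. The deposited log2 values are centred, since the median over the arrays is 0 within 5e-07 for each probe set. Neither the log2 base nor the direction (more signal at higher values) was checked against scanner data. Signal over background is unknown, so no dim probe set could be left out. No 2 arrays were alike (smallest SD of a difference between arrays 0.195).

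Of 22810 probe sets 64 controls were left out. Of the others 13513 have 1 gene in the platform annotation, 503 have several and 8730 are unnamed here. All 29 genes matched a RefSeq gene of assembly TAIR10.1 by gene ID. Log2 changes, ttg1 minus Ler, were fitted by lmFit and eBayes of limma 3.58.1, under R 4.3.3, without covariates, over 22746 probe sets and adjusted by Benjamini-Hochberg at 0.05; errors are moderated standard errors. Lists were described by counts and medians. The labels do not say whether samples came from separate plants, and p-values then cover only the spread among these 8 samples, which may be technical. On simulated data of 22746 probe sets for the same comparison the fit recovered, of 50 probe sets at each size of change on the log2 scale, 1 at 0.25, 21 at 0.5, 47 at 1 and all at 2, and it called 7 of 22546 unchanged ones. In that setting log2 changes of 0.25 were mostly not recovered, and 25 of the 29 genes had changes under 0.25. The simulation held 200 changed probe sets and independent normal noise, whereas 1300 probe sets were called in the data. Its recovery rates therefore need not hold for the data.

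The 29 genes and all lists were chosen with earlier results of these data known. Named by rule were called genes, the 3 smallest p and the 2 widest within-group SDs of each family, TRY, EEL and listed regulators and targets; the other family genes were added so that each is given. Correlations of deviations from the group means between same-numbered replicates 1 to 4 were 0.0769, 0.0318, -0.313 and 0.482. The last was the highest between any ttg1 and any Ler array, and unlike numbers gave -0.579 to 0.448. Whether replicates were paired is thus not settled, and the main fit was unpaired. Alternatives were a replicate block, quantile normalization, median centring of arrays, array weights, robust eBayes, unmoderated variances, the storage globulin mean as a covariate, a threshold of 0.01 and each array left out. The added quantile normalization worked on the centred values. It shrank the log2 change of BAN from -6.43 to -4.68 and that of DFR from -6.99 to -5.12. A fit without ttg1 replicates 1 and 4, and a wider family definition, were chosen after seeing the data. Sequences were not used here, and RefSeq served for gene names and gene order only.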

Additional observations from a re-analysis of the deposited data

Results flagged for a closer look

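In 70 groups of 4 arrays, made of the 29 genes, 5 other named genes and the storage globulin mean in each genotype, 1 array lay far from the other 3 in 3 groups; chance gives about 1 in 20 groups. WRKY6 was at 0.469 in ttg1 replicate 1, while its other ttg1 values lay between -0.0514 and 0.0059. bZIP19 was at 0.055 in ttg1 replicate 2, above the other ttg1 values of -0.168 to -0.154. It was at 0.102 in Ler replicate 3, above the other Ler values of -0.000196 to 0.0132. The gap made up 0.89, 0.938 and 0.869 of the range in these 3 groups.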

How the results depend on the processing

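Over 493 values (29 genes under 17 alternatives) 445 kept their direction and their side of the threshold, 15 kept the direction and lost the threshold, 1 came to pass it and 32 changed sign; the causes were not tested. The counts of called family genes, 1 higher and 1 lower, were 1 and 1 with the replicate block, quantile normalization, median centring, robust eBayes or the wider family definition. They were 0 higher and 1 lower with array weights, 0 and 0 without moderated variances, at a threshold of 0.01 or without ttg1 replicates 1 and 4, and 1 and 2 with the storage globulin covariate. With 1 array left out they ranged from 0 to 1 in each direction. Over all probe sets, 400 higher and 900 lower, the counts were 687 and 1283 with the replicate block, which changed no call among the 29 genes, 786 and 1151 with array weights, 168 and 409 without moderated variances, 1544 and 2030 with the covariate and 112 and 414 at 0.01. With 1 array left out they ranged from 164 to 401 higher and from 509 to 854 lower. The storage globulin difference ranged from -0.43 to 0.194 with 1 array left out. Leaving out 1 array moved the change by over 1.5 times, or turned its sign, in 24 of the 27 genes not called. Sign changes concerned genes that passed in none of these fits. With array weights TRY was at -0.0178, bZIP48 at -0.0269, EEL at -0.0522, bZIP44 at 0.0596 and BZIP24 at 0.00673. Quantile normalization gave 0.0191 for bZIP44 and -0.0299 for BZIP34, median centring -0.00575 for BZIP34 and the covariate 0.00862 for BHLH101. Without ttg1 replicates 1 and 4 the changes were -0.0955 for TRY, -0.0191 for MYBC1, 0.0309 for BZIP60, 0.0202 for BZIP53, -0.0704 for bZIP48, -0.0441 for EEL, 0.138 for bZIP44, 0.0209 for BZIP24 and -0.0189 for BZIP34. With 1 array left out the range was -0.123 to 0.0218 for bHLH34, -0.0674 to 0.0618 for BHLH101, -0.0102 to 0.163 for WRKY6, -0.0015 to 0.108 for bZIP48, -0.093 to 0.238 for EEL, -0.172 to 0.0782 for bZIP44, -0.0643 to 0.0229 for BZIP24 and -0.069 to 0.0613 for BZIP34. The planned filter on dim probe sets was not run, since centring removed the levels.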

Other observations

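The symbol on the annotation left out family genes that carry another name, and any on probe sets not named with 1 gene. A family name stands only in the RefSeq synonyms for 10 further genes, 2 bHLH, 7 bZIP and 1 WRKY, a set chosen after the values of the 29 were seen. None of them passed the threshold in limma, 2 had an unadjusted p under 0.05 (against 23% of all probe sets), the same 2 did not overlap between genotypes (against 14.8%), and the median log2 change was 0.057. Both counts were near those shares. AT4G38900, listed there as a bZIP gene, had the smallest adjusted p. It was at -0.41, -0.037, -0.046 and -0.22 in ttg1 replicates 1 to 4, against 0.40, 0.18, 0.23 and 0.037 in Ler replicates 1 to 4, without overlap (log2 change -0.39 ± 0.11, adjusted p 0.0675 in limma). AT1G22490, listed as a bHLH gene, was at 0.20, 0.014, 0.11 and 0.13 in ttg1, against -0.34, -0.094, -0.014 and -0.047 in Ler, also without overlap (log2 change 0.24 ± 0.093, adjusted p 0.161 in limma). FD, a bZIP partner of the flowering signal FT, had a change of 0.08 ± 0.12, and ZAP1, a WRKY gene, one of 0.022 ± 0.15 (adjusted p 0.729 and 0.947 in limma). ZAP1 was highest in replicate 1 of both genotypes, at 0.33 in ttg1 and 0.43 in Ler.

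Few known targets of these factors were measured by name, and the lists were written after the values of the 29 genes were seen. Of 10 genes under the group IVc bHLH factors BHLH101 and PYE were measured, of 12 genes of the unfolded protein response the calreticulin gene CRT1b, and of 8 zinc deficiency genes the transporter ZIP9. CRT1b had a log2 change of -0.068 ± 0.089 and ZIP9 one of -0.072 ± 0.086 (adjusted p 0.683 and 0.649 in limma). Of 14 genes listed for iron uptake and storage only ILR3 was measured, itself a group IVc factor, so that list gave no uptake or storage gene. Of 6 targets of bZIP53 and its partners none was measured by name.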
